A study of Mus musculus with 2 samples.

Results

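The nuclear genes of respiratory complexes III to V were followed in the heart of male mice at 10 days of age. Members were all genes whose symbol begins with Uqcr, Cox4 to Cox8 or Atp5, together with Cyc1 and Cycs, provided that the annotation gives them a protein-coding transcript and that the symbol does not mark a pseudogene. This gave 46 gene identifiers under 45 symbols, of 55536 annotated genes, because Atp5o has 2 identifiers. Complex III had 9 members, complex IV 18 and complex V 18, and Cycs, the electron carrier cytochrome c, stood alone. The rule used names and no measured value.

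All samples belonged to 1 group. The animals were B6CASTF1/J, a hybrid of the C57BL/6 laboratory strain and the wild-derived CAST strain, and were untreated as far as the labels say. Total RNA was measured in 2 libraries, called replicate 1 and replicate 2 after their labels, with total expected counts over genes of 38627658 and 37694435. The labels number the males separately but point to 1 donor record, so the spread between the libraries may be partly technical, and with 1 group no treatment, stage or genotype could be compared. The heart holds many cell types, and in such bulk samples fewer cells of a type and less RNA per cell cannot be told apart. The cardiomyocyte markers were abundant in both libraries, with Myh6 at 8595 and 8333 TPM, the deposited level per length of transcript, scaled to 1 constant sum in each library.

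Complex III passes electrons from ubiquinol to cytochrome c, complex IV passes them from cytochrome c to oxygen, and complex V uses the proton gradient that these steps maintain to make ATP. A few subunits are encoded in mitochondrial DNA, and the nuclear genome supplies all the others. Several small subunits of complex IV come as pairs of genes (paralogs), 1 used in most tissues and 1 used in heart and skeletal muscle, and the c subunit, which forms the rotating ring of complex V, is made from 3 genes whose mature proteins are alike.

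Some members have near-identical copies elsewhere in the genome, and these sequences are shown because they set how reads could be assigned. The first is a stretch of 90 coding bases of the c subunit from Atp5g2, followed by the same stretch in its pseudogene Gm10175 and in the other genes of the c subunit. Sequences are from the GENCODE M21 transcripts, and capitals mark bases that differ from Atp5g2.
Atp5g2: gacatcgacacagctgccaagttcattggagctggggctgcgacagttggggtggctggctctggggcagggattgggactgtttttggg
Gm10175: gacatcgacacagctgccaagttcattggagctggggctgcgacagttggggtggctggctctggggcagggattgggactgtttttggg
Atp5g1: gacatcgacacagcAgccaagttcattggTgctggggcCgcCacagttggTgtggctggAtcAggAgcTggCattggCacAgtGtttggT
Atp5g3: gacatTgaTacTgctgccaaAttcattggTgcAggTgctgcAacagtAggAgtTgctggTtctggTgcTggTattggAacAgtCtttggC

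In this stretch Atp5g1 differed from Atp5g2 at 14 bases and Atp5g3 at 19, whereas Gm10175 differed at 0. Gm10175 lies on the minus strand at chr7:23946646-23947290 (mm10), while Atp5g2 lies on the minus strand of chromosome 15 at chr15:102662864-102672352. The whole annotated Gm10175 transcript, 645 bases, matched bases 83 to 727 of the leading transcript of Atp5g2 with 645 identities, a span that takes in the whole coding sequence. The next set gives the first 60 coding bases of Cycs, with the same bases in 2 of its copies and capitals at differences from Cycs.
Cycs: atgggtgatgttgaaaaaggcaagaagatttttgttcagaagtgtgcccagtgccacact
Gm10053: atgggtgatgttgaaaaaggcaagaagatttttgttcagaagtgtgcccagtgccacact
Gm10108: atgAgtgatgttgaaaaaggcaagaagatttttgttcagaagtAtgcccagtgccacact

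Gm10053 (chr19:24875686-24876631, plus strand), annotated as protein-coding, was identical to the leading transcript of Cycs over 945 of its 946 bases. Gm10108 (chr5:13121448-13121766, minus strand), a processed pseudogene, was identical over 317 of 319. In contrast, members of each subunit set compared below shared 0 words of 31 bases with each other, so reads of that length could be told apart between paralogs.

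Nearly all members were abundant. At least 1 TPM was reached in both libraries by 43 of the 46 identifiers, in complex III by 9 of 9, in complex IV by 16 of 18 and in complex V by 17 of 18. The median member was at 553 TPM in replicate 1 and 480 TPM in replicate 2, a mean of 516 ± 52.1 (SD, n = 2). The medians of complex III (589 ± 27.1 TPM), complex IV (509 ± 53.7) and complex V (522 ± 35.8) lay within 1.5-fold of each other. Members together held 2.78% ± 0.224 of all TPM (SD, n = 2), of which complex V held 1.29% ± 0.0898, complex IV 0.960% ± 0.0948 and complex III 0.522% ± 0.0391. The other deposited quantification was derived from the read files where the first was derived from transcriptome alignments, per the deposited notes. It gave a higher median, 896 ± 17.3 TPM, and a higher share, 4.32% ± 0.0273. The quantifications also divided counts by different effective lengths, 261 and 84.5 bases for Cox8b-201 and 322 and 115 bases for Atp5e-201 in replicate 1. A higher level in the other thus did not always rest on more counts. In replicate 1 Cox8b rose from 786 to 1184 TPM while its counts fell from 6204 to 2909, whereas the counts of Atp5e rose from 4848 to 5624.

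**Figure D1:**
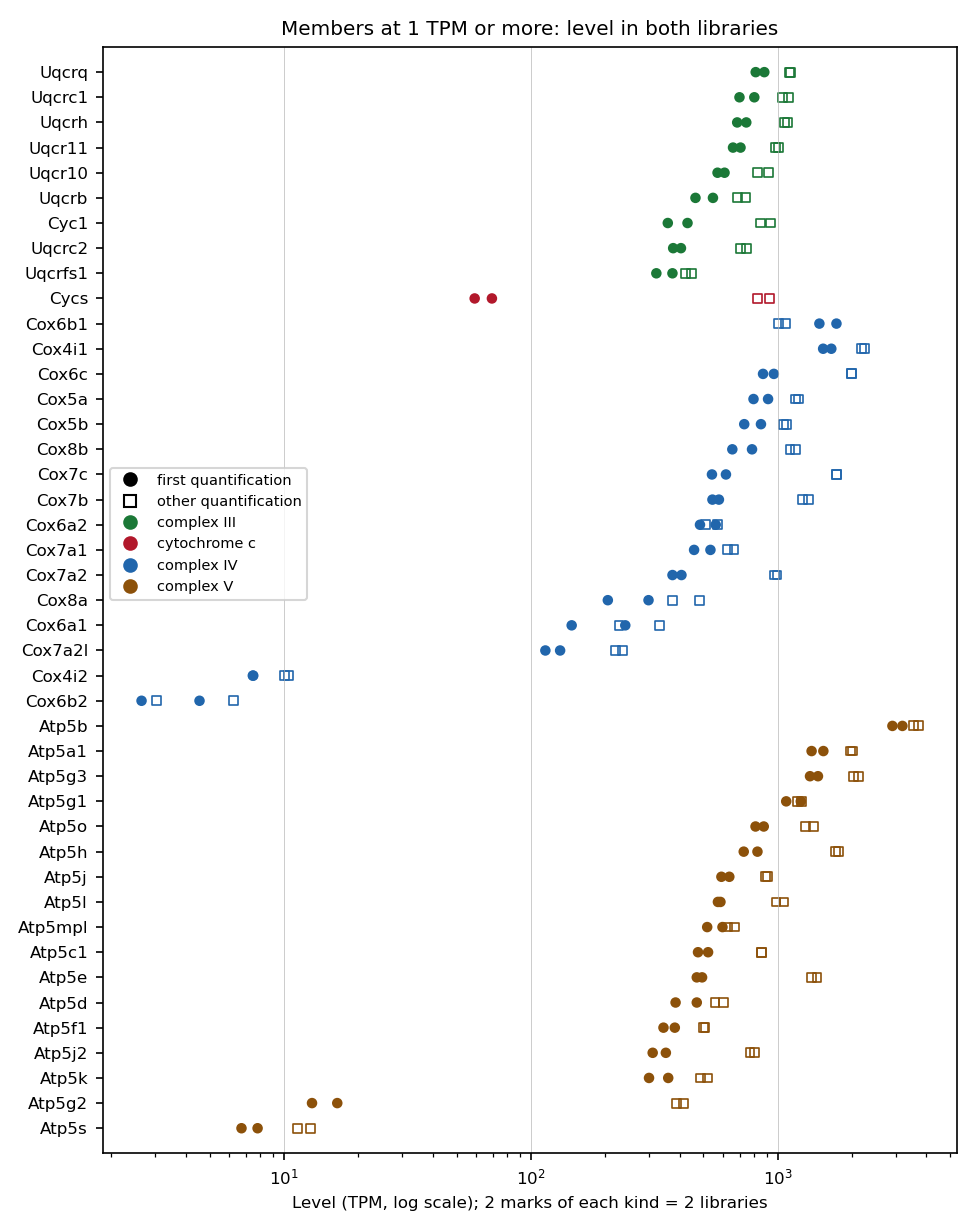
Level of each member at 1 TPM or more, on a log axis in TPM, ordered by complex and by mean; filled circles are the first quantification and open squares the other, with 1 mark per library. Most members lie between 100 and 3196 TPM in both, while Cycs and Atp5g2 lie far lower in the first quantification than in the other.

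In complex III all members lay within a narrow range, from 348 to 848 TPM. The highest were Uqcrq, a small subunit that binds ubiquinone, at 882 and 814 TPM, Uqcrc1, a core subunit, at 803 and 699 TPM, and Uqcrh, the hinge protein that helps cytochrome c dock, at 745 and 685 TPM. Their SDs were 48.0, 73.4 and 42.8 TPM. Uqcrq was the highest of complex III in both libraries under both quantifications. Uqcrc1 exceeded Uqcrh in both libraries of the first quantification, with overlapping ranges. In the other quantification Uqcrh was the higher in replicate 1 (1063 against 1042 TPM), so the order of Uqcrc1 and Uqcrh is uncertain. Cyc1, which is cytochrome c1 and carries electrons, was at 431 and 358 TPM in the first quantification and at 933 and 853 TPM in the other, where it was no longer among the lower members. Uqcrfs1, the Rieske iron-sulfur protein, was at 374 and 322 TPM, and at 448 and 424 TPM in the other quantification, the lowest of complex III in both. The second core subunit, Uqcrc2, stood at 405 and 377 TPM, below Uqcrc1 in both libraries. The small subunits Uqcr11 (706 and 659 TPM), Uqcr10 (608 and 570 TPM) and Uqcrb (546 and 464 TPM) lay between.

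In complex IV the level of the detected members ran from 3.60 to 1601 TPM. Cox6b1, which lies on the side of the complex facing cytochrome c, was at 1728 and 1474 TPM and Cox4i1, a regulatory subunit that binds ATP, at 1647 and 1526 TPM. These ranges overlapped, so the order of the first pair could not be given. Cox6c followed at 964 and 871 TPM, above Cox5a at 913 and 797 TPM and Cox5b at 855 and 731 TPM. Ranges overlapped along this series, but its order was the same within each library and in the other quantification. Cox7b was at 577 and 544 TPM. Cox7c was at 617 and 541 TPM in the first quantification, 1730 and 1727 TPM in the other, and 2264 and 2076 TPM in the first with its annotated copies added, so its place in the order is uncertain. Levels with copies added are sums of TPM, in which a count on a short copy weighs more than a count on the longer member. The Cox7c copy Gm12338, of 192 bases, added 1518 and 1402 TPM on 4268 and 4177 counts. The order at the top was not the same in the other quantification, where Cox4i1 (2177 and 2249 TPM) and Cox6c (1987 and 1981 TPM) led and Cox6b1 was at 1078 and 1009 TPM. Cox6b1 had the lowest ratio of the other to the first quantification of all detected members, 0.652, against a median of 1.48 over the 43 detected members and 1.31 over 11528 nuclear protein-coding genes.

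In complex V the beta subunit of the catalytic head led. Atp5b, the beta subunit on which ATP is formed, was at 3196 and 2911 TPM, the highest of all members and rank 12 among nuclear protein-coding genes. Its partner Atp5a1, the alpha subunit, was at 1529 and 1370 TPM. Both form the head in equal number, but the level of Atp5b exceeded that of Atp5a1 in both libraries, with no overlap. Of the c subunit genes, compared below, Atp5g3 (1454 and 1350 TPM) was below Atp5a1 in each library, with overlapping ranges, and Atp5g1 was at 1239 and 1081 TPM. Atp5g3 was above Atp5a1 in the other quantification, at 2033 and 2116 TPM against 2003 and 1974 TPM. The other parts of the head and stalk were lower, with Atp5c1, the gamma subunit of the shaft, at 522 and 475 TPM, Atp5d, the delta subunit, at 470 and 385 TPM, and Atp5e, the epsilon subunit, at 494 and 470 TPM. Atp5e was at 1368 and 1441 TPM in the other quantification, above Atp5c1 (859 and 862 TPM) and Atp5d (602 and 557 TPM). In the peripheral stalk Atp5o, which joins it to the head, was at 877 and 812 TPM and Atp5h (subunit d) at 827 and 728 TPM. Atp5o was the higher in each library, with overlapping ranges. Atp5h was the higher in the other quantification (1759 and 1717 TPM against 1291 and 1391 TPM) and with annotated copies added (1096 and 968 TPM against 893 and 828 TPM). Atp5j (coupling factor 6) was at 636 and 591 TPM and Atp5f1 (subunit b) at 383 and 344 TPM. Of the small membrane subunits, Atp5l was at 572 and 586 TPM, Atp5mpl at 597 and 518 TPM, Atp5j2 at 352 and 311 TPM and Atp5k, which takes part in forming synthase dimers, at 360 and 301 TPM. Atp5s, coupling factor B, was the lowest member of complex V that was detected, at 7.82 and 6.73 TPM.

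The 3 identifiers under 1 TPM were Cox8c with 0 and 0 counts, Cox7b2 with 0 and 1 counts, and the second Atp5o identifier with 0 and 0 counts. Cox8c and Cox7b2 are forms known from testis. A count of 0 allows up to 3 counts, which for Cox8c is 0.276 TPM in replicate 1 and 0.261 TPM in replicate 2, so levels under these were not detectable at this depth.

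The members whose level differed most between the quantifications, Atp5g2 and Cycs, have annotated copies. An annotated copy was a pseudogene or a gene named by number that shared at least 100 words of 31 bases with the member. There were 29 such copies, of 14 members. For Atp5g2, which encodes the c subunit, the first quantification gave 246 and 330 counts to the gene and 5074 and 4547 to the copies, so that 95.4% and 93.2% of the counts of the family stood on copies. The other quantification gave 4732 and 4324 counts to Atp5g2 and under 1 to the copies. The level of Atp5g2 was accordingly 13.0 and 16.4 TPM in the first and 414 and 390 TPM in the other. With the copies added, the first quantification gave 320 and 276 TPM.

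Cycs showed the same pattern in part. The gene was given 5766 and 5308 counts and its copies 12348 and 11251, which is 68.2% and 67.9% on copies, and Gm10053 alone took 10935 and 10071. In the other quantification Gm10053 kept 5843 and 5705 counts and Cycs had 12345 and 11032. The level of Cycs was 69.5 and 59.2 TPM in the first quantification, 927 and 829 TPM in the other, and 709 and 598 TPM in the first with copies added. Of the level in the other, 857 and 762 TPM stood on Cycs-201, a transcript of 607 bases. Cycs-202, of 3123 bases, was at 61.8 and 53.9 TPM in the first and 69.5 and 66.8 TPM in the other. Most of the gap in the level of Cycs thus stood on the short transcript. The summed count of the Cycs family was close in both quantifications, 18114 and 16559 in the first and 18188 and 16737 in the other. For the other families with 5% or more on copies in a library, the share was 39.8% and 41.5% for Cox7c, 20.9% and 17.5% for Atp5l, 19.5% and 19.8% for Atp5h, 16.9% and 16.6% for Cox7a2l, 7.67% and 7.89% for Cox5b and 5.17% and 4.22% for Atp5g1. Gm12338 (chr11:75599763-75599954), a copy of Cox7c, matched it at 192 of 192 bases, the whole coding sequence, and took 4268 and 4177 counts. Gm10221 (chr5:24581554-24581862), a copy of Atp5l, matched at 309 of 309 bases and took 2028 and 1774 counts. Counts on such copies and on their member are uncertain, since identical reads can be divided only by a model, and which locus the RNA came from was not tested.

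**Figure D2:**
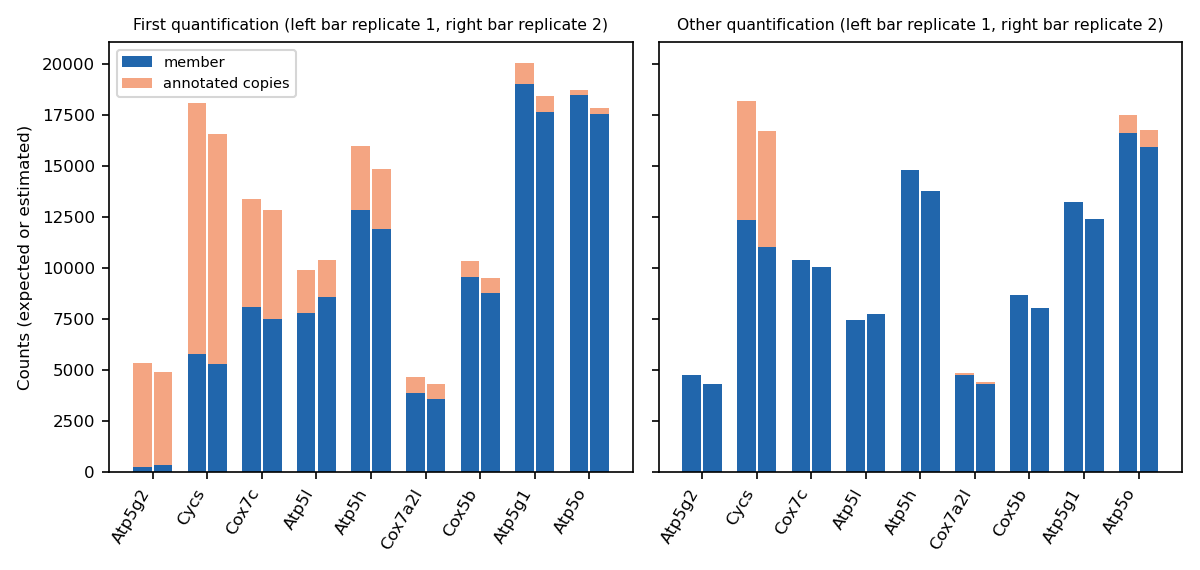
Counts on a member (blue) and on its annotated copies (orange) in both quantifications, for members with at least 1% of family counts on copies, with replicate 1 as the left bar and replicate 2 as the right. In the first quantification 95.4% of the Atp5g2 family count of replicate 1 lies on copies, and in the other quantification nearly none of it does.

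Within subunits made from several genes, 1 gene usually held most of the RNA. Of 7 sets compared, 5 were led by over 2-fold in both libraries, on the scale of log2(TPM + 0.1). In the Cox4 set the common form Cox4i1 (1647 and 1526 TPM) exceeded Cox4i2, a form known from lung and from low oxygen, which was at 7.48 and 7.51 TPM. The log2 ratio was 7.71 ± 0.08 (SD, n = 2), and Cox4i2 held 0.452% and 0.490% of the set. In the Cox6b set Cox6b1 exceeded Cox6b2, a form known from testis, which was at 4.55 and 2.65 TPM with 48 and 34 counts, and the log2 ratio was 8.80 ± 0.37, or 7.86 ± 0.65 in the other quantification. Cox7b exceeded the floor of Cox7b2 by at least 2578-fold in replicate 1, and replicate 2 had 1 count of Cox7b2 against 11232 of Cox7b. Cox8b exceeded the floor of Cox8c, the third gene of its set, by at least 2845-fold in replicate 1 and at least 2508-fold in replicate 2.

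The muscle forms led 2 of these sets. Cox6a2, the form of heart and skeletal muscle, was at 560 and 484 TPM and Cox6a1, the form of most tissues, at 241 and 146 TPM. Cox6a2 therefore held 69.9% of the Cox6a level in replicate 1 and 76.8% in replicate 2. In the other quantification Cox6a2 was at 568 and 511 TPM and Cox6a1 at 332 and 227 TPM. The ratio was 1.71-fold in replicate 1 and 2.25-fold in replicate 2, so the set was no longer led by over 2-fold in both libraries. Of the Cox6a1 level there, 305 and 215 TPM stood on a retained-intron transcript. The protein-coding Cox6a1-201 was at 27.5 and 12.3 TPM, and the split over transcripts is uncertain. Cox8b, the muscle form of subunit 8, was at 786 and 654 TPM and Cox8a at 299 and 205 TPM, and Cox8b held 72.4% and 76.1% of the set. Its lead was 2.62-fold and 3.19-fold, and 2.45-fold and 3.00-fold in the other quantification.

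The Cox7a set was not led by over 2-fold, and its order over all transcripts depended on the quantification. Cox7a1, the muscle form, was at 534 and 458 TPM and Cox7a2, the form of most tissues, at 407 and 374 TPM. The log2 ratio of Cox7a1 over Cox7a2 was 0.34 ± 0.07 (SD, n = 2) in the first quantification and -0.60 ± 0.09 in the other, where Cox7a2 was at 967 and 992 TPM and Cox7a1 at 665 and 627 TPM. With protein-coding transcripts alone the ratio was 0.80 in the first. In the other, the protein-coding Cox7a2-201 was at 422 and 422 TPM, below Cox7a1, whose transcripts are all protein-coding. The processed transcript Cox7a2-203 was at 541 and 569 TPM there, so the order reversed only with transcripts not annotated as protein-coding included. Cox7a2l is known as a factor of supercomplexes of complexes III and IV, a role not tested in these hybrid hearts. Cox7a2l was at 131 and 114 TPM, and at 239 and 206 TPM with its copies added. The third gene thus held 12.3% and 12.1% of the set, or 20.3% and 19.9% with copies. Its counts rose less than its level, from 3880 and 3584 to 4670 and 4299, since the copy has 342 bases and the main transcript 1076.

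The c subunit set was not led by over 2-fold either. Atp5g3 was at 1454 and 1350 TPM and Atp5g1 at 1239 and 1081 TPM, a log2 ratio of 0.28 ± 0.06 (SD, n = 2) that was 0.76 ± 0.08 in the other quantification and 0.16 ± 0.08 with copies added. Atp5g3 was the higher in both libraries under each of the 3. The third gene, Atp5g2, held 0.480% and 0.672% of the set in the first quantification, 11.2% and 10.5% in the other, and 10.3% and 9.92% with copies added. Its log2 distance below Atp5g3 was 6.57 ± 0.31, 2.37 ± 0.10 and 2.24 ± 0.08 in that order. The sum over the set was 2706 and 2448 TPM in the first quantification and 3698 and 3712 TPM in the other, where Atp5b was at 3702 and 3541 TPM.

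**Figure D3:**
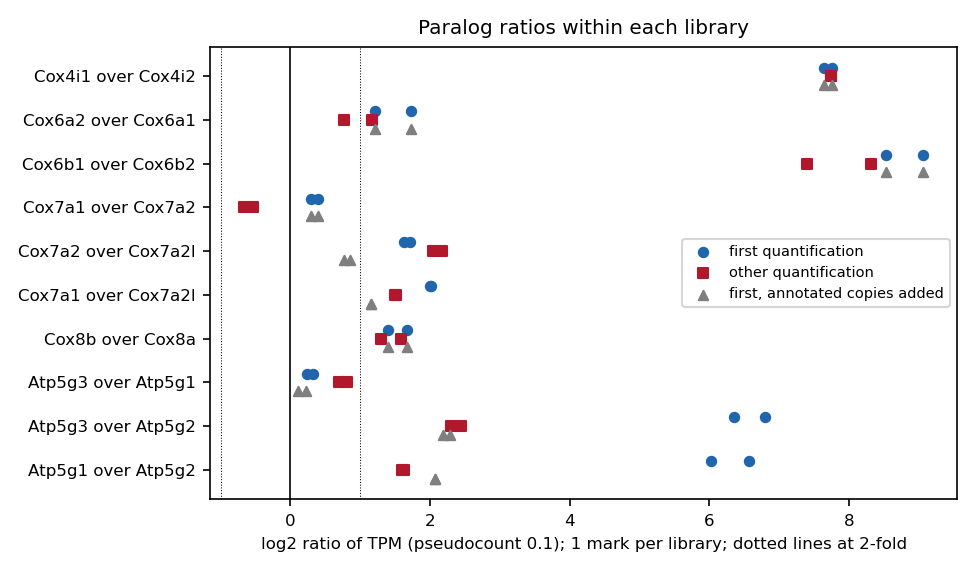
Log2 ratio of TPM between genes of 1 subunit set, with 1 mark per library, for the first quantification (circles), the other quantification (squares) and the first with annotated copies added (triangles). Cox7a1 over Cox7a2 lies above 0 in the first quantification and below 0 in the other, and the ratios against Atp5g2 fall from above 6 to between 1.60 and 2.44.

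Promoters of muscle forms and of common forms are shown because they differed in CpG content within the pairs where both promoters were at hand. Any link of CpG content to level was not tested. Each sequence is the 250 bases before the RefSeq start (GRCm38.p6), with every CpG dinucleotide in capitals.
Cox7a1, chr7:30183921-30184170, plus strand: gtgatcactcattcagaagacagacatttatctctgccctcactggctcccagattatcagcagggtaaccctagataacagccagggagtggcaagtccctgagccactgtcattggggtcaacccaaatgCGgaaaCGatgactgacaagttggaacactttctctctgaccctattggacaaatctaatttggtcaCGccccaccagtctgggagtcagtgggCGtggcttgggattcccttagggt
Cox7a2, chr9:79759854-79760103, minus strand: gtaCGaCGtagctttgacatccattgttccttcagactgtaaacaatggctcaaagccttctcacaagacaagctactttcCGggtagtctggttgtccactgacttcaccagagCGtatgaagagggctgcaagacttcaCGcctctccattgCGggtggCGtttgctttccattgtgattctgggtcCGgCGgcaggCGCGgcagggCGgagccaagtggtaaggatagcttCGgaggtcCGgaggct
Cox8b, chr7:140900447-140900696, minus strand: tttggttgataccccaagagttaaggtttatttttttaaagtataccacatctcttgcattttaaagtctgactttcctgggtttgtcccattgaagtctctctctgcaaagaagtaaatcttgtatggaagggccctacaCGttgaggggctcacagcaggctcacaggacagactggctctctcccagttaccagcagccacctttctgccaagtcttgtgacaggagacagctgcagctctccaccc
Cox8a, chr19:7217617-7217866, minus strand: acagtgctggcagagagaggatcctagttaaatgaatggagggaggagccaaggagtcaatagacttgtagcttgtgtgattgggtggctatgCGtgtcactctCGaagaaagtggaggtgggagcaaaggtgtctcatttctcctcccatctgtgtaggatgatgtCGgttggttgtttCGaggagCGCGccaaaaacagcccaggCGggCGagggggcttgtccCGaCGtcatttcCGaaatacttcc
Cox6a1, chr5:115348959-115349208, minus strand: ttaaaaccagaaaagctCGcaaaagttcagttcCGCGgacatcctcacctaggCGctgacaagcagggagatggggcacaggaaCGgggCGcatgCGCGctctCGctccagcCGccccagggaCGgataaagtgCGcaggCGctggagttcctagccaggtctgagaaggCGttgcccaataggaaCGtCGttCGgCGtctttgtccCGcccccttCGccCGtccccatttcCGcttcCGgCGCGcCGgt

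Cox7a1 had 4 CpG in this window and Cox7a2 had 14, Cox8b had 1 and Cox8a had 11, and Cox6a1 had 26. Cox6a2 was not among the 32 of 45 member symbols that matched the RefSeq promoter table. The median was 13.5 CpG over the 32 matched members and 6 over the first promoter of 27025 genes. Letters of 6 motifs were searched on both strands in the same window. The motif of NRF1, a factor known for mitochondrial genes (GCGCA and GCGC with 1 base between), was found in 4 of 32 members, 12.5%, against 3.86% of all promoters. A motif of GABPA, also called NRF2 (CCGGAAG), was found in 7 members, 21.9%, against 7.05%. The shares were 6.25% against 4.05% for the motif of ERR (AAGGTCA), 6.25% against 13.0% for TATAAA, 3.13% against 3.23% for that of MEF2 (CTA and TAG with 4 bases between) and 6.25% against 12.8% for the E-box CAGCTG. The NRF1 and GABPA letters hold CpG, in which members are richer, and TATAAA and CAGCTG do not. The shares were not adjusted for this. The sequence after the start ended in a transcript of the gene for 30 of 35 member promoters. Atp5g2 and Atp5h, which held the NRF1 letters, were not among these. Cox6a1 held both the NRF1 and the GABPA letters, and Cox8b held the E-box letters. These matches describe the letters in the window and say nothing of binding in these hearts.

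Between the libraries most members differed little. After scaling by edgeR's TMM factors, log2 ratios of replicate 2 to replicate 1 were formed for the 42 members whose counts averaged 50 or more. A log2 ratio above 0.32 or below -0.32 was called higher or lower. The median ratio was 0.04 for members and -0.01 for 13211 genes, and the range over members was -0.51 to 0.55. Of the 42 members, 2 were called lower in replicate 2, Cox6a1 and Cox8a, against 9.84% of all genes, and 1 was called higher, Atp5g2, against 9.36%. Past 1.5-fold there were 0 members in either direction, against 3.32% lower and 3.01% higher of all genes. Most members are highly counted, and at a mean count of at least 2000 the numbers were 2 of 39 lower against 4.57% of genes and 0 of 39 higher against 5.26%. The number of lower members was thus near the share in similarly counted genes. With 1 library on each side no test across animals was possible, and the intervals below cover counting error only.

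Cox6a1 (chr5:115345642-115348981, minus strand) was counted 3448 times in replicate 1 and 2217 times in replicate 2, a log2 ratio of -0.51 (95% interval -0.58 to -0.43). Cox8a (chr19:7215153-7217616, minus strand) had 4083 and 2961 counts, a log2 ratio of -0.33 (-0.40 to -0.26). Both values were close in the other quantification, at -0.47 and -0.36. Their muscle paralogs differed less, with Cox6a2 at 9844 and 9008 counts (log2 ratio 0.00) and Cox8b at 6204 and 5471 (-0.05). The third common form, Cox7a2, had 6291 and 6096 counts and a log2 ratio of 0.08, so the common forms did not all differ in 1 direction. Markers of several other cell types also differed between the libraries. The summed level of 7 markers of brown and white adipocytes was 438 TPM in replicate 1 and 37.5 TPM in replicate 2. Of these, 7 of 7 were called lower, and Ucp1 alone was at 239 and 5.02 TPM. Fibroblast markers summed to 1666 and 1048 TPM with 4 of 5 lower, macrophage markers to 52.3 and 32.5 TPM with 4 of 5 lower, and atrial markers to 1504 and 269 TPM with 5 of 5 lower. Mural markers summed to 478 and 359 TPM with 2 of 5 lower, whereas of 4 endothelial markers (303 and 240 TPM) 0 were called. Among 7 cardiomyocyte markers 0 were lower and 1 was higher. Ventricular markers and red cell markers each had 0 of 3 lower and 1 of 3 higher. Of 7 skeletal muscle markers, Ckm and Acta1, which the heart also expresses, were abundant. Tnni2 had 35 and 24 counts, Mylpf 13 and 9, Tnnt3 5 and 7, Myh1 1.02 and 0, and Myh4 0 and 0 (4.17 and 9.17 in the other quantification). The part of these differences in the ratios of Cox6a1 and Cox8a, and in the levels of the muscle forms, was not tested.

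Atp5g2 had the highest log2 ratio, 0.55 (95% interval 0.31 to 0.80), on 246 and 330 counts, and its ratio was -0.02 in the other quantification. Atp5l followed at 0.26 (0.22 to 0.31), with 7813 and 8553 counts, and was at 0.17 in the other quantification. Atp5s (0.24), Cox4i2 (0.22) and Atp5e (0.14) came next, and of these Atp5s and Cox4i2 had intervals that held 0. After Cox6a1 and Cox8a the lowest were Atp5d (-0.07), Cox8b (-0.05) and Atp5k (-0.04). By complex, the median was 0.07 in complex III, 0.02 in complex IV and 0.06 in complex V, and Cycs was at 0.01. The sign of these small medians depended on the scale, since the median over members was -0.05 when scaled to the total count, while its distance from the median of all genes, 0.05, was the same.

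**Figure D4:**
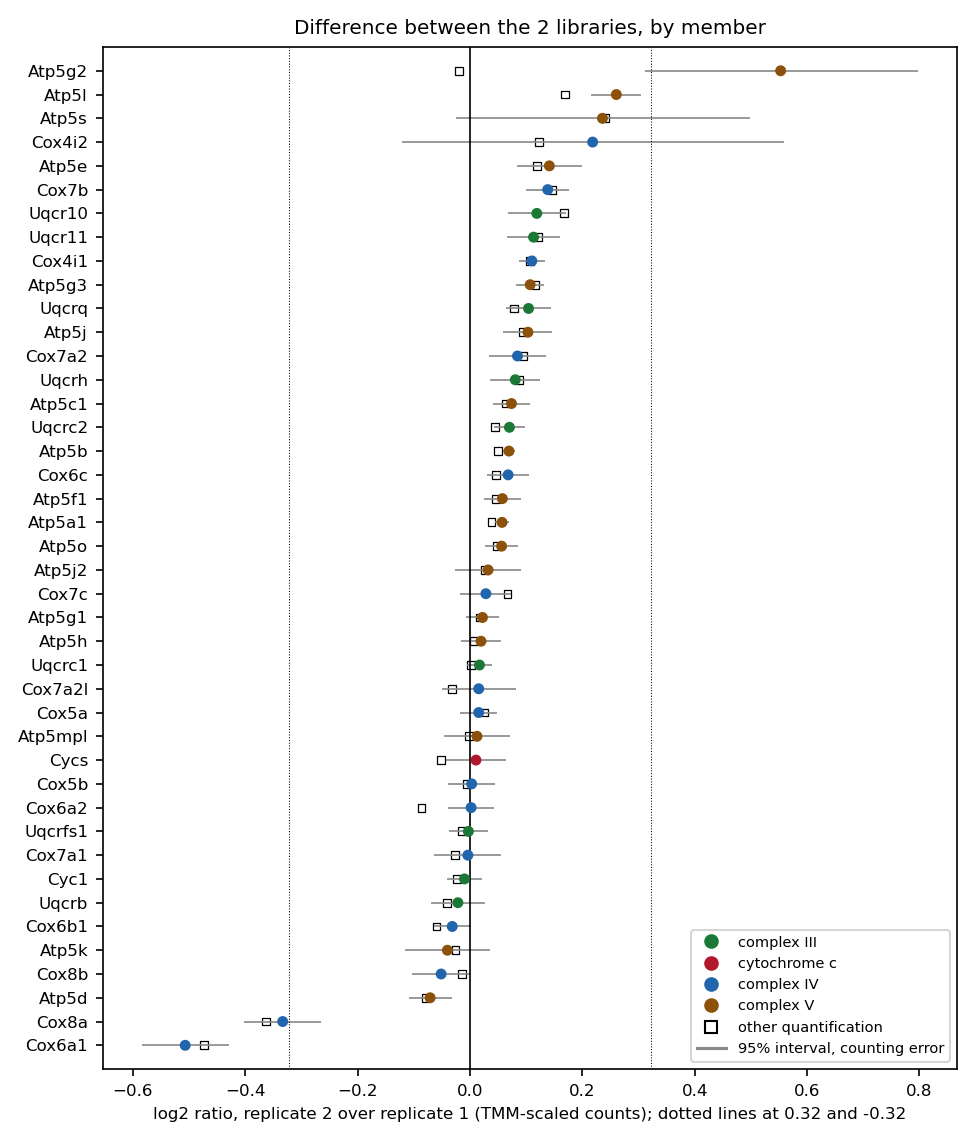
Log2 ratio of replicate 2 over replicate 1 for 42 members, with filled circles and 95% counting intervals for the first quantification, open squares for the other, and dotted lines at 0.32 and -0.32. Cox6a1 and Cox8a lie past the line on the lower side, and Atp5g2 lies past it on the upper side in the first quantification only.

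The transcript that held most of a member's TPM was the same in both quantifications for 23 of 43 detected members. Its share had a median of 94.7% in the first quantification and 75.6% in the other. It was annotated as protein-coding for 39 members in the first and for 33 in the other. The first quantification placed most of Atp5j on the retained-intron transcript Atp5j-208 (92.0% and 92.8%), where the other placed 88.6% and 90.6% on the protein-coding Atp5j-203. Uqcrh was placed on the retained-intron transcript Uqcrh-205 (65.6% and 66.9%) and in the other on the processed transcript Uqcrh-204 (90.9% and 89.2%). Cox5b was placed on Cox5b-205, a processed transcript (69.8% and 68.9%), and in the other on the protein-coding Cox5b-201 (67.6% and 64.7%). Cox7b was placed on the retained-intron transcript Cox7b-203 in both, at 54.4% and 53.6% in the first and 99.8% and 99.9% in the other.

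The other quantification placed Cox6a1 on the retained-intron transcript (91.7% and 94.6%), where the first had 98.2% and 97.8% on the protein-coding Cox6a1-201. It placed Cox7a2 on the processed transcript Cox7a2-203 (56.0% and 57.4%), where the first had 73.5% and 71.9% on Cox7a2-201. Cycs stood on the retained-intron transcript Cycs-201 in the other (92.5% and 91.9%) and on the protein-coding transcript in the first (88.8% and 91.0%). These members are also ones whose level or paralog ratio moved between the quantifications, so their split over transcripts is uncertain. For Cyc1 the other quantification spread the level, with 29.4% and 29.7% on a transcript marked for nonsense-mediated decay. The leading transcript also differed for Atp5g1, Atp5h, Atp5k, Atp5l, Atp5mpl, Atp5s, Cox4i1, Cox4i2, Cox6b1, Cox6b2, Cox7a1, Uqcr10 and Uqcr11. A leading share under 70% in the first quantification was found for 8 members, which besides Cox5b, Cox7b and Uqcrh were Atp5b (67.8%), Atp5f1 (49.97% and 50.03% in replicates 1 and 2), Cox6b1 (48.0%), Atp5s (32.0%) and Cox6b2. On its few counts the share of Cox6b2-201 was 14.1% in replicate 1, where Cox6b2-209 held 28.6%, and 50% in replicate 2. In Atp5f1 the remaining level, 49.7% in both libraries, stood on transcripts not annotated as protein-coding.

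Genes that assemble these complexes were far lower than the members. The median was 16.8 ± 2.76 TPM (SD, n = 2) over 6 assembly factors of complex III, 19.9 ± 2.63 over 22 assembly and copper delivery factors of complex IV and 29.8 ± 5.24 over 5 assembly and inhibition factors of complex V. In the last list Atpif1, which blocks the synthase from running in reverse, was highest at 227.9 and 213.8 TPM. Of the 33 genes in these lists, 2 were called lower in replicate 2, Pet117 (106 and 60.8 counts) in the complex IV list and Atpaf2 (978 and 714 counts) in the complex V list, against 9.84% of all genes, and 0 were higher, against 9.36%. The call of Pet117 rests on the first quantification, since the other gave it 0.3802 and 0 counts. Hccs, which attaches heme to cytochrome c, was at 27.5 and 21.8 TPM, and the testis cytochrome c, Cyct, was at 0.18 and 0.28 TPM with 3 and 5 counts. Ndufa4, which associates with complex IV, was at 1017 and 934 TPM, in the range of the highest members of that complex. The 8 genes of complex II had a median of 157 ± 17.3 TPM, and 0 of 8 were called in either direction. The 6 subunits of complexes III to V that are encoded in mitochondrial DNA had a median of 10857 ± 203 TPM and a median log2 ratio of 0.15, with 0 of 6 called. Their levels were uneven, with mt-Co2 at 380 and 357 TPM in the first quantification and 3159 and 3005 TPM in the other, and mt-Atp8 at 3301 and 2968 TPM in the first and listed at 0 in the other.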

How the data were processed

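Total RNA from heart was measured in 2 ribosomal-RNA-reduced, stranded libraries made from 300 ng, per the labels. The authors' tables hold expected counts (estimated counts in the other quantification), TPM and FPKM on mm10 with GENCODE M21, per the file headers and deposited notes; the programs used are not given in the sources used here. Rows naming no gene held 3.89 and 3 counts and were left out, and whether counting used strand is not stated there.

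Levels are TPM summed per gene. For ratios, whole-number rounding of the counts was followed by scaling with edgeR 4.0.16 (TMM) or DESeq2 1.42.0 in R 4.3.3 and by adding 0.5 to each. Intervals are exact 95% Clopper-Pearson. The ratio was tried on simulated counts, and no outcome of that trial is given here. The rule that called Cox6a1, Cox8a and Atp5g2 was not tested in that way. Named genes were all members of subunit sets, the 3 highest per complex, those under 1 TPM, the 5 highest and 5 lowest ratios, members with a leading transcript under 70% or differing between quantifications, the 5 whose level differed most between quantifications, Cycs and Cyc1. Other members and list genes were named after their values were seen. Members and lists were chosen with earlier results of these data known. Shared words of 31 bases were counted in GENCODE M21 transcripts, and promoters are from RefSeq. Reads of CAST alleles were assigned to a C57BL/6 reference.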

Additional observations from a re-analysis of the deposited data

How the results depend on the processing

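The median member level, 516 TPM, was 896 in the other quantification and 451 with protein-coding transcripts only. The share of TPM, 2.78%, was 4.32% in the other quantification, 2.33% with protein-coding transcripts only, 6.91% of the TPM of nuclear protein-coding genes and 3.11% with annotated copies added, an alternative chosen after seeing the data. The median log2 ratio of replicate 2 over replicate 1, 0.04, was -0.0505 scaled to total count, -0.181 on TPM and -0.0151 scaled to the ERCC total. These scales also moved the median of all genes, to -0.10, -0.21 and -0.06. The leading transcript's median share, 94.7%, was 75.6% in the other quantification. Cox7a1 over Cox7a2, taken over all transcripts, reversed in the other quantification, to -0.60. The number of sets led by over 2-fold was 4 in the other quantification and 5 under the other alternatives. With 1 library left out in turn, the median level ranged from 480 to 553 TPM, the share from 2.62% to 2.94%, the sets led from 5 to 5 and the leading share from 94.5% to 95.02%. The ratio between libraries has no value without either. Without a filter on low counts 3 members were called lower. No paired analysis was possible because there is 1 group.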
